A study of Mus musculus with 4 samples.

Results

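The megakaryocyte and platelet genes Pf4, Itga2b, Gp1bb, Gp9, Gp6, Vwf, Nrgn, Ppbp and Fli1 were followed in leukemia cells with and without overexpression of Suv39h1, an H3K9 methyltransferase. These 9 genes were chosen by name, with earlier results of these data known. Each matched 1 row among the 23552 genes of the deposited table of FPKM, a count of sequenced fragments scaled to the length of the transcript and the depth of the library. The RNA came from c-Kit+ leukemic cells enriched from the bone marrow of moribund C57BL/6 mice with MLL-AF9 (MA9) acute myeloid leukemia (AML). There were 2 control libraries (replicates 3 and 4; genotype control-eGFP overexpression) and 2 SUV-OE libraries (replicates 2 and 3; genotype Suv39h1-eGFP overexpression), all labelled batch 2. Every library therefore carried MLL-AF9 and an eGFP vector, and the groups differed by the Suv39h1 insert. The methods describe female mice of the C57BL/6J substrain, 8 weeks old when used. The labels do not say whether each replicate was a separate mouse, so the p-values below measure the spread between these samples, which may be technical. Per the methods, transduced cells were passaged through sublethally irradiated recipients, which keep blood cells of their own. The protocol for the RNA samples names an enrichment for c-Kit and no gate on eGFP.

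Megakaryocytes are the marrow cells that shed platelets. They develop under the transcription factors GATA1, FLI1, RUNX1, TAL1, GFI1B and NF-E2, and on their way they put the αIIbβ3 integrin, the GPIb-IX-V complex and GPVI on the surface and fill α-granules with chemokines and adhesive proteins. Some of these genes are also used elsewhere: Vwf in endothelium, Itga2b in early progenitors and mast cells, and Fli1 throughout much of the blood system. In bulk RNA, fewer cells of a type and less RNA per cell cannot be told apart, and this applies to every result that follows.

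The groups were first checked against their labels. Suv39h1 read 12.4 FPKM in both controls, against 75.3 and 81.2 FPKM with the Suv39h1 vector, a log2 fold change of 2.56 (SE 0.11, limma adjusted p = 0.00866). Kit was at 20.4 and 19.2 FPKM in control and at 28.6 and 25.4 FPKM in SUV-OE. The reads recovered from the steps between FPKM values, summed over genes, came to between 19910753 and 23358897 per library. This sum need not equal the reads sequenced. The authors' scaling divided by a smaller number, 16873770 to 19453058, and with it 3 reads on 1 kb of exons correspond to 0.154 to 0.178 FPKM. This floor covers counting error only.

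Expression was compared as log2(FPKM + 1) with limma in the 13736 genes whose mean reached 0.5 FPKM. A gene was called where its p, adjusted by Benjamini-Hochberg, was under 0.05 and its log2 fold change was 1 or more in size, with SUV-OE minus control as the direction throughout. On this scale the change of a weakly expressed gene is understated, so the recovered reads of 14274 genes were also compared with limma-voom. The limma test called 1.22% of all tested genes, 0.815% higher and 0.408% lower in SUV-OE. The limma-voom test called 4.65%, with 3.56% higher and 1.09% lower. With 2 libraries against 2, an exact permutation test of a single gene cannot give a two-sided p below 0.333, so no such test is reported.

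Of the 9 genes, 6 passed the filter on low values, and 1 of them, Nrgn, was called by limma, as lower in SUV-OE. At an unadjusted p under 0.05, Itga2b, Pf4 and Ppbp were also higher in limma, as were 10.3% of all tested genes. The limma-voom test covered 8 and called Itga2b, Ppbp and Vwf as higher and Nrgn as lower. Both SUV-OE libraries lay above both controls for 5 of the 9 genes, where 25.7% of all genes in the data did so, and below both for 2 of the 9, against 21.9% of all genes. The median log2 fold change over the 9 genes was 0.28 on the log2(FPKM + 1) scale, and over all genes it was 0.01. The 9 genes did not share 1 direction: Pf4, Ppbp, Vwf, Itga2b and Gp1bb had both SUV-OE libraries above the controls, Gp9 and Gp6 overlapped between the groups, and Nrgn and Fli1 had both below.

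**Figure D1:**
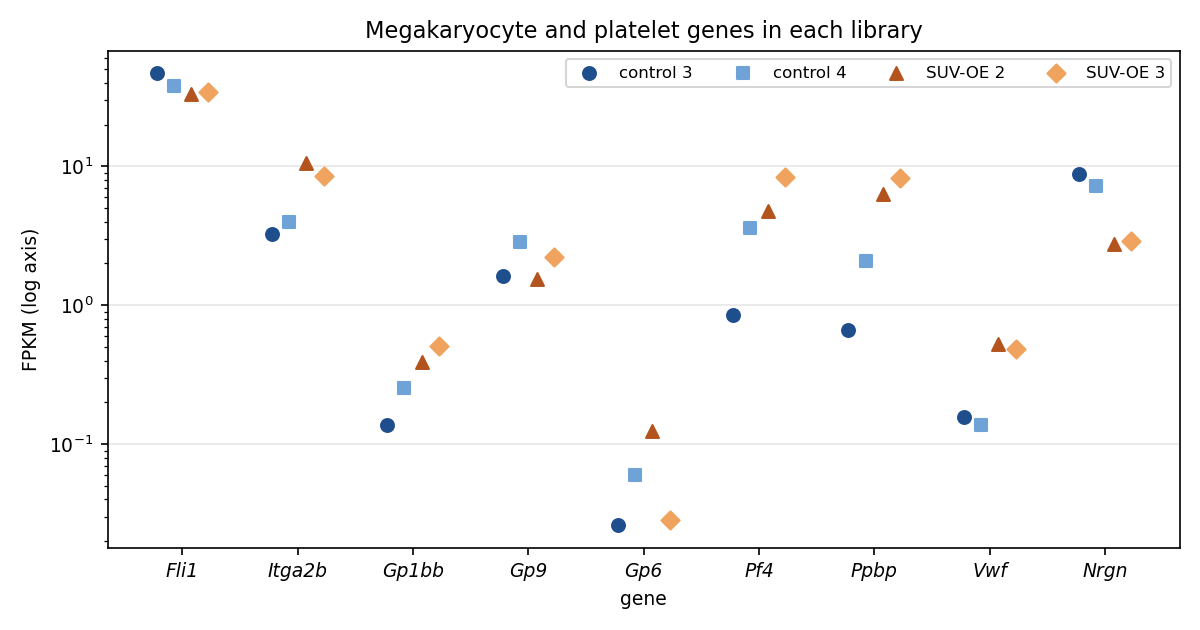
FPKM (log axis) of the 9 genes in each library, with 1 point per library (blue for control, orange for SUV-OE). Fli1 was the most highly expressed at 33.2 to 46.7 FPKM and Gp6 the least at 0.0261 to 0.124 FPKM; the groups are separate for Itga2b, Gp1bb, Pf4, Ppbp, Vwf, Nrgn and Fli1.

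Among the α-granule proteins, Pf4 and Ppbp encode platelet factor 4 and pro-platelet basic protein, chemokines that megakaryocytes make in large amounts and that serve as lineage markers. Pf4 was at 0.856 and 3.62 FPKM in control replicates 3 and 4 and at 4.77 and 8.43 FPKM in SUV-OE replicates 2 and 3, which is 12, 44, 61 and 108 reads. Ppbp was at 0.665, 2.08, 6.3 and 8.26 FPKM in the same order, with 14, 38, 121 and 159 reads. For both genes every SUV-OE library exceeded every control, but the controls themselves stood far apart, control replicate 4 being 4.23-fold above control replicate 3 for Pf4 and 3.13-fold for Ppbp. The ratio of group means was 2.95 for Pf4 and 5.3 for Ppbp.

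Neither chemokine was called by limma. Pf4 had a log2 fold change of 1.33 (SE 0.50, limma adjusted p = 0.232), which was 0.68 without control replicate 3 and was 1.99 without control replicate 4. Ppbp had a log2 fold change of 1.86 (SE 0.33, limma adjusted p = 0.084). On the recovered reads Ppbp was called, with a log2 fold change of 2.62 (SE 0.49, limma-voom adjusted p = 0.0288), while Pf4 was not (1.87, SE 0.63, limma-voom adjusted p = 0.131), though it was without SUV-OE replicate 2 (2.27, limma-voom adjusted p = 0.0424). Over all settings that kept the 4 libraries, the adjusted p of Ppbp ranged from 0.0288 to 0.179 and that of Pf4 from 0.131 to 0.357. Without control replicate 3 the Ppbp call was lost (1.78, limma-voom adjusted p = 0.0951).

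Ppbp and Pf4 are neighbours on chromosome 5 of mm10, Ppbp at chr5:90768518-90770063 and Pf4 at chr5:90772435-90773383, both on the plus strand and 2372 bases apart. The CXC chemokine genes to either side were nearly silent. Cxcl5, 6894 bases before Ppbp, was at 0.0552 and 0 FPKM in control and 0.0302 and 0.151 FPKM in SUV-OE, and Cxcl3, 12720 bases after Pf4, was at 0.0588, 0, 0.0322 and 0.0161 FPKM. At these levels the depth allows no comparison of Cxcl5 and Cxcl3 between the groups.

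Because these neighbours had the same order of libraries, their promoter windows are shown, from 250 bases before to 50 bases after the start site (RefSeq, GRCm38.p6, plus strand), Pf4 at chr5:90772185-90772484 and Ppbp at chr5:90768268-90768567. Capitals mark the core letters bound by GATA factors (GATAA) and ETS factors such as FLI1 (GGAAG), and the RUNX letters TGTGGT, each searched on both strands.
Pf4: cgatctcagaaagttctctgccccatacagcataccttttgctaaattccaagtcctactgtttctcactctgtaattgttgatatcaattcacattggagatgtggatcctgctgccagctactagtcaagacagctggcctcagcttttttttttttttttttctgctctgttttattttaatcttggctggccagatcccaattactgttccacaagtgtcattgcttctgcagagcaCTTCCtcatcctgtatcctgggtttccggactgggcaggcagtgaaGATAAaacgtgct
Ppbp: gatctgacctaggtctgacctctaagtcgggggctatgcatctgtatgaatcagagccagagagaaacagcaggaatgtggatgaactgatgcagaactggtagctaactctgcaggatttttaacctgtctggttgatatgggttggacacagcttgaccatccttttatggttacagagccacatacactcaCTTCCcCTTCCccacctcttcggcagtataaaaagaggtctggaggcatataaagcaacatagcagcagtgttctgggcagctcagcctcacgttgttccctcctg
Pf4 held 1 GATA match, 37 bases after the start, and 1 ETS match, 9 bases before it. Ppbp held 2 ETS matches and no GATA match. Of 32851 promoter windows of this length in the table, 25.4% held the GATA letters, 71.4% the ETS letters and 16.8% the RUNX letters, so a match is a description of the sequence only. Promoter windows were found for 7 of the 9 genes. The ETS letters were in 7 of these 7, the GATA letters in 3 (Gp9, Gp6 and Pf4) and the RUNX letters in 1 (Gp9).

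Vwf encodes von Willebrand factor, which tethers platelets to collagen and is stored by megakaryocytes and endothelial cells (chr6:125546774-125686679, plus strand). It was at 0.157 and 0.137 FPKM in control and at 0.523 and 0.483 FPKM in SUV-OE, with a ratio of means of 3.43. The long exons, 16064 bases in all, gave 49 and 37 reads in control against 149 and 138 in SUV-OE, so that a gene under the FPKM filter still had a usable count. Control replicate 4 was at 0.871-fold of control replicate 3, a smaller gap than for the chemokines. On the recovered reads Vwf was called with a log2 fold change of 1.76 (SE 0.27, limma-voom adjusted p = 0.0167), and without control replicate 3 the call was lost (1.87, limma-voom adjusted p = 0.0794), as it was without control replicate 4 (1.67, limma-voom adjusted p = 0.0514). With no filter, limma gave an adjusted p of 0.138 for the log2(FPKM + 1) difference of 0.39.

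Itga2b encodes αIIb (CD41), which pairs with β3 to form the fibrinogen receptor of platelets (chr11:102453297-102470122, minus strand). Its level was 3.28 and 3.99 FPKM in control replicates 3 and 4 and 10.5 and 8.51 FPKM in SUV-OE replicates 2 and 3, from 348, 367, 1016 and 825 reads. The groups were well apart and the replicates close, with a ratio of means of 2.62. The limma log2 fold change was 1.18 (SE 0.16, limma adjusted p = 0.056), just outside the threshold, and on the recovered reads Itga2b was called at 1.39 (SE 0.18, limma-voom adjusted p = 0.0109). The adjusted p ranged from 0.0109 to 0.138 over the settings that kept all 4 libraries, and was also under the threshold with a minimum mean of 1 FPKM (0.0453) and with a robust trend (0.0494). Without control replicate 3 the limma-voom adjusted p was 0.0779.

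The partner gene Itgb3 (β3) had a like course, at 4.62 and 4.44 FPKM in control and 12 and 10.2 FPKM in SUV-OE, and was called by limma (1.12, SE 0.13, adjusted p = 0.0434). The mRNA levels of the partners stayed close: Itgb3 was above Itga2b by 1.41-fold and 1.11-fold in control, against 1.14-fold and 1.2-fold in SUV-OE. Of the other genes in the limma test, those whose profile over the 4 libraries lay nearest to that of Itga2b were Aff3, Gm14830 and Itga1, the last a collagen-binding integrin α subunit, at 0.696 and 1.01 FPKM in control and 3.59 and 2.59 FPKM in SUV-OE. Of the genes around Itga2b, Grn (log2 fold change -0.17), Gpatch8 (0.24) and Slc25a39 (-0.08) were not called, and Fam171a2 (0.115 and 0.152 FPKM in control, 0.379 and 0.397 FPKM in SUV-OE) was under the FPKM filter and was not called on the recovered reads (limma-voom adjusted p = 0.11).

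The Itga2b promoter window (chr11:102469834-102470133, minus strand) is shown because it held the most ETS matches of the 7 windows, 4, of which 3 lie within 42 bases of the start. No GATA or RUNX letters were in this window. Capitals mark the matches as above.
Itga2b: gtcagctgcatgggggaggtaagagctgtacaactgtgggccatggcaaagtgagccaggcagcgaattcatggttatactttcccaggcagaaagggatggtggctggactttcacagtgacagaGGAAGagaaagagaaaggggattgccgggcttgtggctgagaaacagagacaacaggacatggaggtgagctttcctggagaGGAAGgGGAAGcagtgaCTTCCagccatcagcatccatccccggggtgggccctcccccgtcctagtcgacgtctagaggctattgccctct

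**Figure D2:**
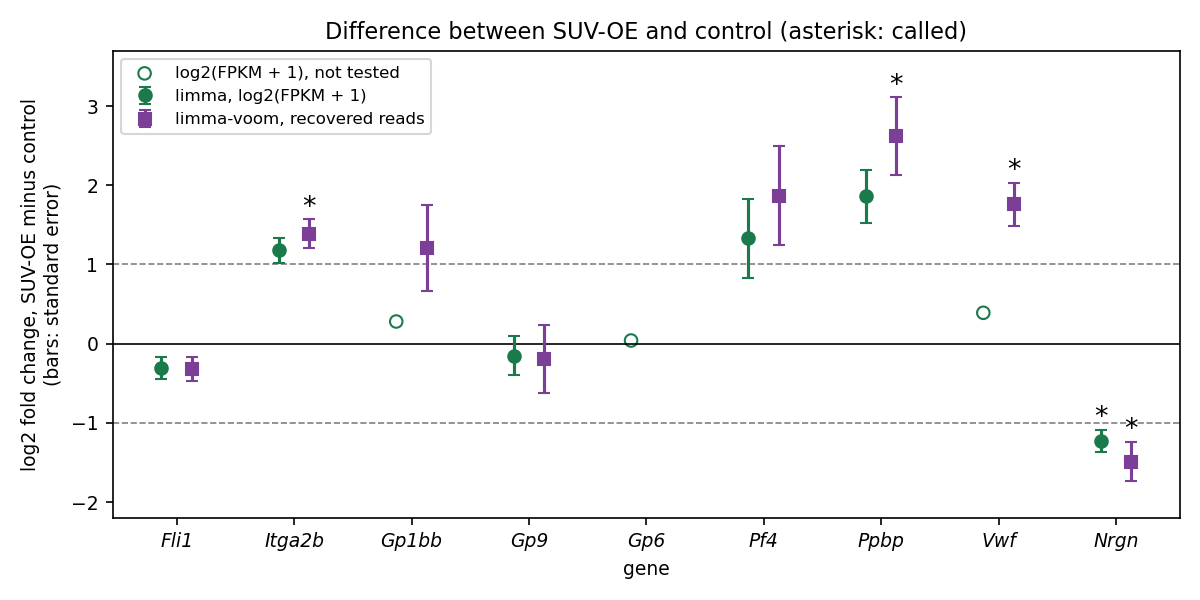
Log2 fold change of SUV-OE against control for each gene, by limma on log2(FPKM + 1) (green) and by limma-voom on recovered reads (purple), with bars for the standard error, open circles for genes under the filter, dashed lines at the threshold of 1 and an asterisk for a called gene. Ppbp, Vwf, Itga2b and Nrgn carry an asterisk in limma-voom and Nrgn in limma; for Gp9 the bars cross 0.

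The GPIb-IX-V complex is the platelet receptor for von Willebrand factor, and none of its subunit genes was called: limma tested Gp9 and Gp1ba, and limma-voom tested these and Gp1bb and Gp5. Gp1bb encodes the β chain of GPIb and was at 0.137 and 0.252 FPKM in control and 0.389 and 0.508 FPKM in SUV-OE. These values rest on 5, 8, 13 and 17 reads, and limma-voom gave a log2 fold change of 1.21 (SE 0.54, adjusted p = 0.225). Gp1bb overlaps Sept5, a septin gene on the same strand of chromosome 16, so how the reads were split between them is uncertain. Sept5 was at 9.38 and 7.13 FPKM in control and 8.35 and 8.44 FPKM in SUV-OE, far above Gp1bb in each library and with overlapping groups.

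Gp9, which the complex needs to reach the surface, was at 1.63 and 2.83 FPKM in control and 1.54 and 2.23 FPKM in SUV-OE. The groups overlapped, and the log2 fold change of -0.15 (SE 0.25, limma adjusted p = 0.764) turned to 0.12 without control replicate 4 and to 0.03 without SUV-OE replicate 2. Gp1ba, which holds the ligand-binding site, also overlapped, at 1.42 and 1.72 FPKM against 1.53 and 1.3 FPKM. Gp5, which is acquired late in the lineage, was at 0.117 and 0.135 FPKM in control and 0.616 and 0.487 FPKM in SUV-OE, from 5, 5, 24 and 19 reads (limma-voom log2 fold change 2.02, SE 0.51, adjusted p = 0.0656). Per length, Gp9 was the most abundant of the 4 subunit genes in every library.

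Gp6 encodes GPVI, the platelet collagen receptor, which signals through the FcRγ chain. Gp6 was close to the limit of detection, at 0.0261 and 0.0603 FPKM in control and 0.124 and 0.0286 FPKM in SUV-OE, with 3, 6, 13 and 3 reads. At this depth no difference was detectable, and neither test covered the gene. The FcRγ gene Fcer1g, shared with mast cells, monocytes and neutrophils, was at 130 and 252 FPKM in control and 196 and 228 FPKM in SUV-OE (log2 fold change 0.22, SE 0.34, limma adjusted p = 0.749), and the sign turned without control replicate 3 (-0.25). Clec1b, the gene of the podoplanin receptor of platelets, was at 0.272 and 0.523 FPKM against 0.42 and 0.397 FPKM, with overlapping groups.

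**Figure D3:**
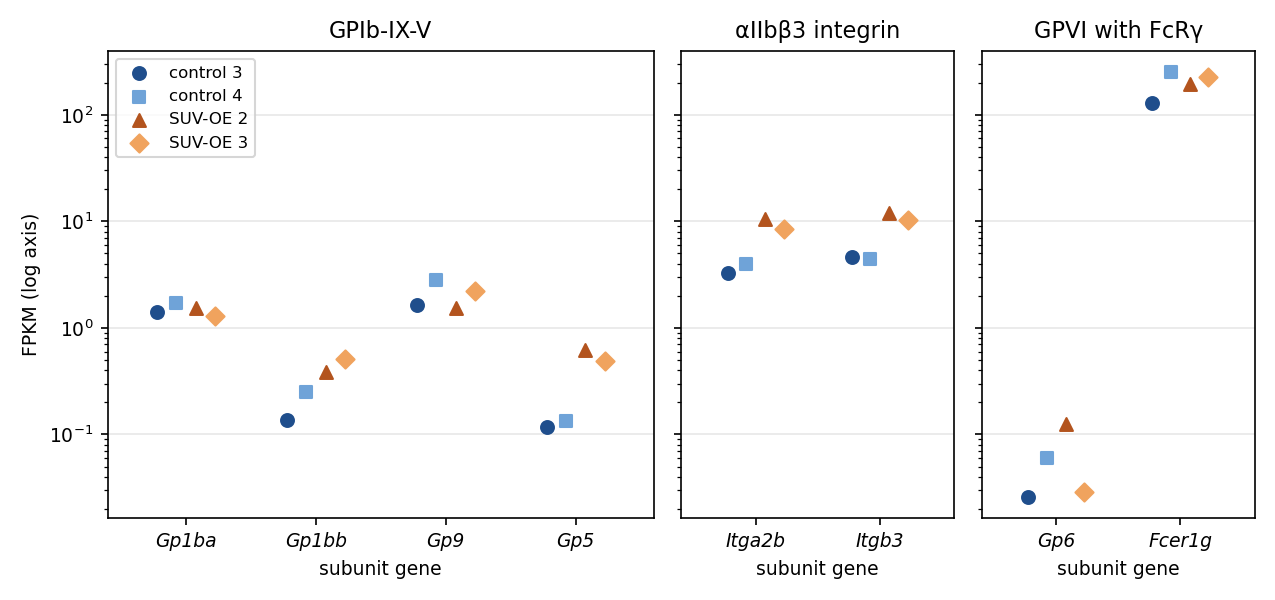
FPKM (log axis) of the subunit genes of 3 platelet receptors in each library, with 1 point per library. The αIIb and β3 genes are higher in both SUV-OE libraries by a like amount, whereas in GPIb-IX-V only Gp1bb and Gp5 have separate groups and Gp6 stays at or below 0.124 FPKM.

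Fli1, an ETS transcription factor that drives late megakaryocyte genes and is also active in other blood cells and endothelium (chr9:32422204-32542861, minus strand), was the most abundant of the 9. It was at 46.7 and 37.8 FPKM in control and at 33.2 and 34 FPKM in SUV-OE, from 2056 to 3166 reads. Both SUV-OE libraries were lower, and the log2 fold change of -0.31 (SE 0.14, limma adjusted p = 0.304) did not pass the test. The ratio of group means was 0.796, and the adjusted p ranged from 0.24 to 0.52 over the settings that kept all 4 libraries.

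Nrgn encodes neurogranin, a calmodulin-binding protein best known from neurons whose transcript is also abundant in platelets (chr9:37544492-37552904, minus strand). It was at 8.84 and 7.18 FPKM in control and at 2.75 and 2.9 FPKM in SUV-OE, from 250, 176, 71 and 75 reads. The groups were separate with close replicates, and Nrgn was the only gene of the 9 called by limma (-1.23, SE 0.14, adjusted p = 0.0434). The limma-voom log2 fold change was -1.49 (SE 0.25, adjusted p = 0.0205), a call that was lost without control replicate 3 (0.0779), SUV-OE replicate 2 (0.0753) or SUV-OE replicate 3 (0.0615). Over the settings that kept all 4 libraries the adjusted p ranged from 0.0205 to 0.135, the highest with no filter on low values, and leaving out any single library ended the limma call (-1.36 to -1.10).

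The genes beside Nrgn did not share 1 direction. Esam, an endothelial and megakaryocyte adhesion molecule 6173 bases away, was at 0.0897 and 0.145 FPKM in control and 0.452 and 0.569 FPKM in SUV-OE. Vsig2, whose gene ends 287 bases from Nrgn on the opposite strand, was at 0.395 and 0.253 FPKM in control and 0.0963 and 0.0481 FPKM in SUV-OE. Both were under the FPKM filter. On the recovered reads Esam was not called (limma-voom log2 fold change 2.08, SE 0.50, adjusted p = 0.060), and Vsig2 had too few reads for a test. Siae, on the far side, was at 8.15 and 9.2 FPKM against 9.6 and 9.18 FPKM and was not called, nor was Msantd2 (log2 fold change 0.27).

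The Nrgn promoter window (chr9:37552696-37552995, minus strand) differed in composition from those of the platelet chemokines, and is shown for that contrast. It held 17 CpG and a GC content of 59.3%, whereas Pf4 and Ppbp held 3 CpG each at 43.3% and 48.7% GC. The median over all windows was 7 CpG and 52.7% GC. Of the 7 windows found, 4 (Gp9, Gp6, Pf4 and Ppbp) had at most 3 CpG, a count shared by 31.4% of all windows. The single capitalised match is to the ETS letters.
Nrgn: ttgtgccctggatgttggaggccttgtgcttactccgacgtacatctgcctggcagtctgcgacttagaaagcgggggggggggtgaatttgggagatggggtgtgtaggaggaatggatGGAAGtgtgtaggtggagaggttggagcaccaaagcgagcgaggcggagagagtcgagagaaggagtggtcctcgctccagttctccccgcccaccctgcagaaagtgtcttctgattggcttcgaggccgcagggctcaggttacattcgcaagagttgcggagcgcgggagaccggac

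The 9 genes were then set beside 65 other genes of megakaryocytes and platelets, grouped by role and also chosen with earlier results of these data known. Of these, 45 passed the filter, and limma called 4 as higher (Tal1, Itga6, Itgb3 and F5) and 0 as lower. At an unadjusted p under 0.05, 22 of the 45 were higher and 2 lower, where 10.3% of all tested genes were higher and 10.4% lower. The filter used the mean over the 4 libraries, so some of the higher genes passed it only through their SUV-OE level. Tal1, Gfi1b and Selp, with control means of 0.235, 0.121 and 0.185 FPKM, are examples. This favours a higher count for genes low in control, and the background shares come from the same filter. The limma-voom test covered 60 and called 15 as higher and 0 as lower, at the backgrounds of 3.56% and 1.09% given above. Leaving out control replicate 3 reduced the 15 to 1, and leaving out another library gave 7 to 13. Both SUV-OE libraries were above both controls for 43 of the 65 genes and below for 5, where 25.7% and 21.9% of all genes in the data were so placed. The median log2 fold change over the 65 genes was 0.31. No gene of this list was called in the direction of Nrgn.

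The 11 transcription factors had a median log2 fold change of 0.72 on the log2(FPKM + 1) scale, above the other roles, but this order depended on the scale. By limma-voom the median was 0.81 for transcription factors, 1.24 for 12 granule proteins, 1.21 for 6 agonist receptors, 0.70 for 14 adhesion and signalling receptors and 0.37 for 17 genes of the cytoskeleton, enzymes and trafficking. Tal1, a basic helix-loop-helix factor of stem cells, erythroid cells and megakaryocytes, was at 0.2 and 0.271 FPKM in control and 2.54 and 2.23 FPKM in SUV-OE, and was called (1.45, SE 0.16, limma adjusted p = 0.0405), though not with a pseudocount of 0.1 (2.90, limma adjusted p = 0.0516). Gfi1b, a repressor needed for platelet and red cell formation, was at 0.112 and 0.13 FPKM against 2.86 and 1.87 FPKM. With 4 reads in each control its fold cannot be fixed well, and its limma log2 fold change was 1.57 (SE 0.21, adjusted p = 0.0537). On the recovered reads Gfi1b was called (4.11, SE 0.56, limma-voom adjusted p = 0.0115).

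Gata1, the principal erythroid and megakaryocyte regulator, was at 0.485 and 0.899 FPKM in control and 2.89 and 2.56 FPKM in SUV-OE (1.15, SE 0.19, limma adjusted p = 0.0735; limma-voom adjusted p = 0.0251 and called). Runx1, at 8.6 and 7.22 FPKM against 15.2 and 13.2 FPKM, and Gata2, at 12 and 9.68 FPKM against 20 and 16.8 FPKM, had log2 fold changes of 0.77 and 0.72, under the fold threshold in both tests. Zfpm1, the GATA1 cofactor FOG-1, was at 4.64 and 2.84 FPKM against 7.38 and 5.6 FPKM and was not called. Nfe2 (p45 NF-E2, needed for platelet release) was at 73.8 and 62.1 FPKM against 79.4 and 70.4 FPKM, with overlapping groups. Of the 11 factors, 9 had both SUV-OE libraries above both controls, 1 had them below and 1 overlapped, where 25.7% of all genes were above and 21.9% below.

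Among the 14 adhesion and signalling receptors the median was 0.33, and besides Itgb3 limma called Itga6, the α6 laminin receptor, at 3.37 and 3.61 FPKM in control and 10.7 and 8.98 FPKM in SUV-OE (1.26, SE 0.13, adjusted p = 0.0404). The 9 agonist receptors had a median of 0.19, and limma called 0 of the 5 tested (at an unadjusted p under 0.05, 3 were higher and 1 lower) and limma-voom 3 of 6. Of all tested genes, limma called 0.815% as higher and limma-voom 3.56%. At an unadjusted p under 0.05 in limma, 10.3% of all tested genes were higher and 10.4% lower.

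The 13 other granule proteins had a median of 0.31. Of these, 9 had both SUV-OE libraries above both controls, 1 had them below and 3 overlapped, where 25.7% of all genes were above and 21.9% below. The 1 below was Srgn, the most abundant (419 and 598 FPKM in control against 320 and 418 FPKM in SUV-OE). F5, the coagulation factor V gene, was called at 7.69 and 8.47 FPKM in control and 22.7 and 21.2 FPKM in SUV-OE (1.34, SE 0.12, limma adjusted p = 0.0272). With no filter on low values F5, Itgb3, Itga6 and Tal1 were no longer called (limma adjusted p = 0.111, 0.124, 0.123 and 0.113). Thbs1 (thrombospondin) was at 1.41 and 1.5 FPKM in control and 5.27 and 3.86 FPKM in SUV-OE (1.17, SE 0.17, limma adjusted p = 0.0642), and Selp (P-selectin) at 0.221 and 0.148 FPKM against 0.741 and 0.905 FPKM. Both were called on the recovered reads (limma-voom adjusted p = 0.0128 and 0.0286). The 18 genes of the cytoskeleton, enzymes and trafficking had a median of 0.22, with 0 of 14 tested called by limma (at an unadjusted p under 0.05, 4 were higher and 1 lower) and 1 of 17 by limma-voom. The shares over all tested genes were 0.815% called higher by limma, 3.56% by limma-voom, and 10.3% higher and 10.4% lower at the unadjusted threshold.

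**Figure D4:**
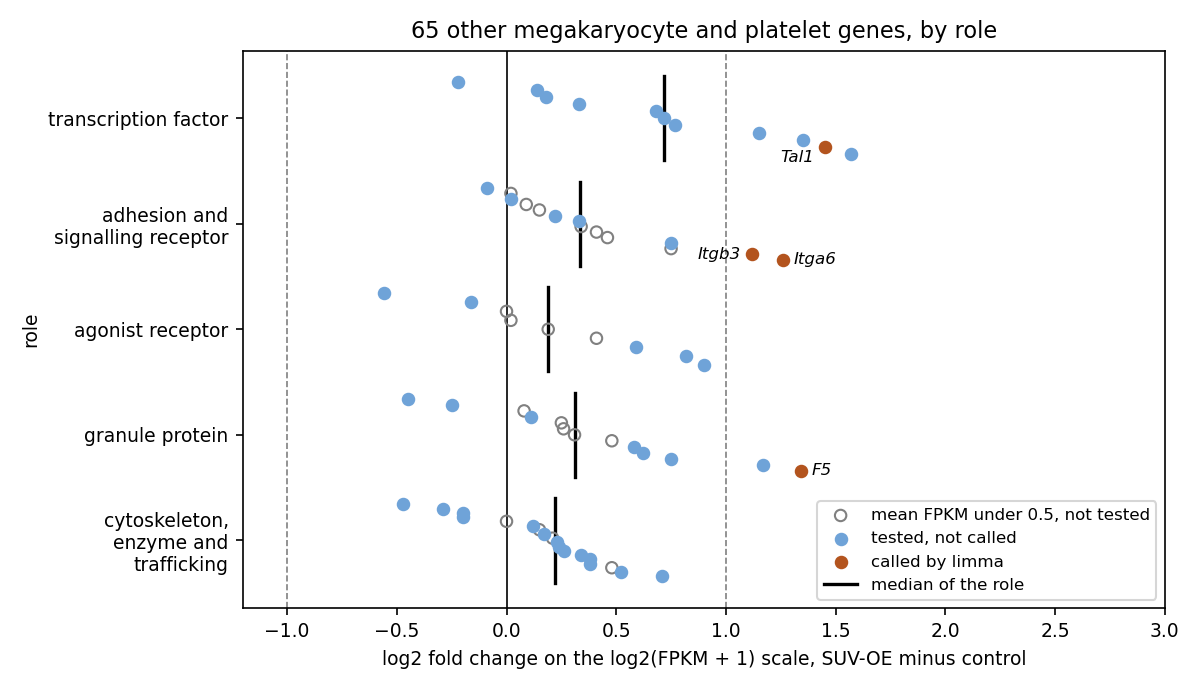
Log2 fold change of the 65 other genes on the log2(FPKM + 1) scale, 1 point per gene, in rows by role with the median of each role as a black bar and dashed lines at the fold threshold of 1. On this scale, which understates weakly expressed genes, the median is 0.72 for transcription factors and 0.19 to 0.33 for the other roles, an order that limma-voom does not keep (0.81 for transcription factors, 1.24 for granule proteins), and the called genes, in brown, are all to the right.

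Markers of other cell types moved with the same contrast and are given as sums of FPKM per library. The 10 neutrophil markers summed to 754 and 2390 in control replicates 3 and 4 against 6660 and 8110 with Suv39h1, with none at 0. Of these, 10 of 10 lay above both controls, as did 25.7% of all genes. The limma test called 1 (Ltf) and limma-voom 7, where 0.815% and 3.56% of all tested genes were called higher. Pf4 and Ppbp had the same order of libraries as the neutrophil sum, lowest in control replicate 3, then control replicate 4. The 4 hemoglobin genes summed to 12.9 and 137 in control against 90.7 and 62.6 in SUV-OE, again with control replicate 3 far below. The other 9 erythroid markers summed to 29.6 and 32.6 against 79 and 79.2, with 3 called higher by limma (Ermap, Car1 and Car2). Car1 (4.57 and 2.28 against 33.4 and 32) and Car2 (2.33 and 1.47 against 15.9 and 18.4) carried the higher sum. Of these 9, 7 lay above both controls, Alas2 overlapped and Tfrc lay below (20.5 and 25.5 against 17.7 and 19.8).

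For Itga2b, Vwf and Itgb3 the controls stood close, with control replicate 4 at 1.22-fold, 0.871-fold and 0.961-fold of control replicate 3, where the neutrophil sum was 3.17-fold and the hemoglobin sum 10.6-fold. The 11 endothelial markers summed to 19.9 and 28 in control against 78.8 and 70.3 in SUV-OE, with 9 of 11 above both controls, as were 25.7% of all genes. Most of that sum was Pecam1 (16.7 and 23.3 against 70.3 and 64.1; the 1 marker of the list that limma called), which megakaryocytes and other blood cells also express. Of the other markers above both controls, Plvap was at 1.33 and 1.85 FPKM against 4.33 and 2.71 FPKM, and most were lower. Kdr, at 0.0285 and 0.0656 FPKM against 0.181 and 0.143 FPKM, and Tie1, at 0.167 and 0.277 FPKM against 0.596 and 0.641 FPKM, are examples. Tek was at 0 and 0.088 FPKM against 0.251 and 0.143 FPKM, and Emcn at 0 and 0.0329 FPKM against 0.0625 and 0.135 FPKM. Cdh5 overlapped between the groups (0.232 and 0.491 FPKM against 0.848 and 0.381 FPKM), and Flt1 was below both controls.

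Of the remaining lists, the mast cell and basophil markers measured (8) summed to 79.4 and 104 in control against 162 and 155 in SUV-OE (5 of 8 above both controls), with Fcer1a at 0 in both controls. Cpa3 (21.3 and 43.5 against 112 and 103) carried the higher sum, while Mcpt8 overlapped (16.1 and 21.1 against 17.1 and 13.4) and Hdc had both SUV-OE libraries below the controls (41.6 and 38.9 against 31.6 and 37.5). The 10 B-lymphoid markers summed to 18.6 and 28.1 against 43.9 and 106 (8 of 10 above both controls), with Ms4a1 at 0 in control replicate 3. The monocyte and macrophage markers (377 and 658 against 375 and 414), the T and NK cell markers (73.9 and 114 against 78.5 and 85.5, Cd8a and Ncr1 at 0 in both controls), the 9 stem and early progenitor markers measured (38 and 50.4 against 49.2 and 45, Ly6a at 0 in control replicate 3, Slamf1 and Mecom in control replicate 4) and 8 genes typical of the leukemic cells, Mpo, Hoxa9 and Meis1 among them (632 and 680 against 627 and 695) had sums that overlapped between the groups. Single abundant genes such as Ly6c2, Nkg7 and Cd34 made up most of several of these sums. By count, 7 of 10 monocyte and macrophage markers, 5 of 10 T and NK cell markers, 7 of 9 stem and early progenitor markers and 4 of 8 leukemic cell genes lay above both controls, as did 25.7% of all genes. Several markers counted as above in these lists rest on few reads, so their placement is uncertain. Procr had 1 and 2 reads in control against 8 and 9 in SUV-OE, Cd8a 0 and 0 against 1 and 1, and Fcer1a 0 and 0 against 2 and 1. Of the stem and early progenitor list, limma called Hlf as higher (1.34, adjusted p = 0.048). The part of these cell types in the levels of the 9 genes was not tested.

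**Figure D5:**
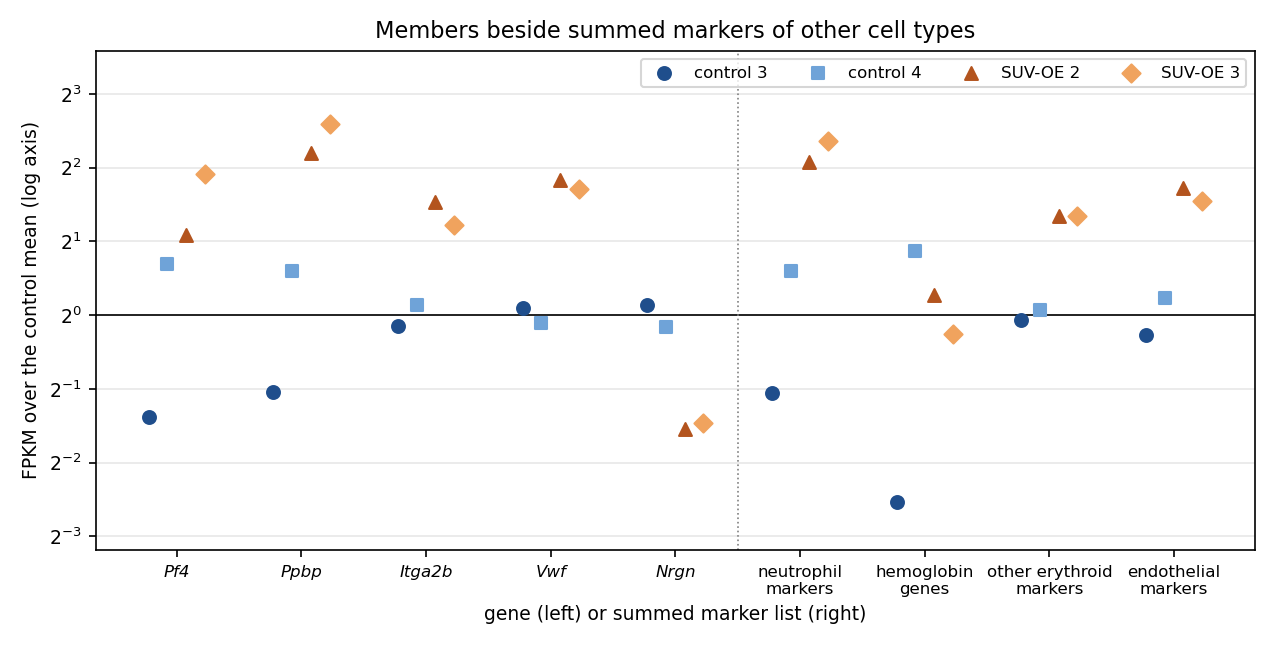
Level in each library divided by the mean of the 2 controls (log axis), for 5 of the 9 genes on the left and for the summed FPKM of 4 marker lists on the right. Control replicate 3 lies far below control replicate 4 for Pf4, Ppbp, the neutrophil sum and the hemoglobin sum, while the controls nearly coincide for Itga2b, Vwf, Nrgn and the other erythroid markers.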

How the data were processed

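RNA-seq covered 2 control and 2 SUV-OE libraries. Per the study's methods, the authors made TruSeq libraries, sequenced paired ends, aligned reads to mm10 with TopHat2 and deposited FPKM values, said to come from Cufflinks; the submitters' notes also name CASAVA 1.8. FPKM is scaled to length and depth. The study tested read counts, but the unit deposited was FPKM, so limma 3.58.1 (R 4.3.3) was used on log2(FPKM + 1) with an intensity trend, for genes whose mean reached 0.5 FPKM.

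Reads were recovered from the FPKM steps at GENCODE M21 exon lengths: for 78.5% of genes all 4 values were whole within 0.01, and others were matched at another length. limma-voom took genes averaging 10 reads or more and the authors' library divisors. On simulated data for SUV-OE against control, limma (13632 genes) called 97% of 197 changed genes and 19 unchanged ones, and limma-voom (14279 genes) called 100% of 200 and 4. The changed genes were well covered by reads, were given a change larger than the fold threshold, and varied little between replicates. These shares therefore do not give the power for weakly expressed genes, smaller changes or controls as far apart as for Pf4.

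The 9 genes and all lists were chosen with earlier results of these data known. Named genes were the 9, every listed gene that limma called, and listed receptor subunits, granule and transcription factor genes. Protein-coding genes within 50 kb of the 9 were named too, except those beside Gp9, and Rdh13 beside Gp6. The 3 genes nearest to Pf4 and to Itga2b in profile, Suv39h1 and Kit were also named. Marker genes of other cell types were named after their values were seen. Sequences were from RefSeq (GRCm38.p6), and figures were drawn with matplotlib. Alternatives were other pseudocounts, filters, scalings and trends, limma-voom, and leaving out each library; leaving out a library within limma-voom was added after seeing the data. Some listed genes are not reported here.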

Additional observations from a re-analysis of the deposited data

How the results depend on the processing

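The number of genes called by limma, 168, was 0 with no filter on low values (4177 had an unadjusted p under 0.05) and 664 by limma-voom. Leaving out a library gave 0 to 544, with 0 in each limma fit (1166 to 3877 at an unadjusted p under 0.05) and, by limma-voom, 71 without control replicate 3, 507 without control replicate 4, 544 without SUV-OE replicate 2 and 532 without SUV-OE replicate 3. Of the 9 genes, 1 was called; this was 0 with no filter (5 at an unadjusted p under 0.05), 2 with a mean of at least 1 FPKM, 2 with a robust trend, 4 by limma-voom and 0 to 4 without a library, with 0 by limma-voom without control replicate 3, 3 without control replicate 4 and 3 without SUV-OE replicate 3. Of the 65 other genes, 4 were called; this was 0 with no filter, 15 by limma-voom and 0 to 13 without a library (by limma-voom 1, 7, 13 and 10, in the same order). Fits with a library left out have 1 lone sample in a group, assumed to vary like the other group.

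The median log2 fold change of the 9 genes, 0.28, was 0.92 with a pseudocount of 0.1, 0.19 with quantile normalization, 1.30 by limma-voom (8 genes) and 0.21 to 0.35 without a library. That of the 65 genes, 0.31, was 0.67 with a pseudocount of 0.1, 0.80 by limma-voom and 0.29 to 0.35 without a library. Gp9 ran from -0.42 to 0.12 and Fcer1g from -0.25 to 0.69 without a library, and both turned in sign.

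Over the 26 named genes with alternatives, 153 of 170 values in settings that kept all libraries had the same direction and side of the thresholds, 11 passed them newly, 6 no longer passed and 0 turned. With 1 library left out of the limma fit, 57 of 80 were the same, 20 no longer passed, 0 passed newly and 3 turned in sign. Depth limits Gp6, Gp1bb and Gp5, which rest on few reads. No paired analysis was possible because only the replicate number 3 occurs in both groups.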

Other observations

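The 3 genes nearest to Pf4 in their profile over the 4 libraries were Gm10964 (distance 0.201), Mir7675 and Gm24539, each listed at 0 in control replicate 3. Gm10964 was at 1.48 FPKM in control replicate 4 and at 1.88 and 3.28 FPKM in SUV-OE. The nearest to Itga2b was Aff3 (distance 0.0536), at 0.414 and 0.694 FPKM in control and 2.96 and 2.3 FPKM in SUV-OE. These are descriptions over 4 libraries.

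Several megakaryocyte genes that were singled out after their values were seen were low in control and higher in SUV-OE. Mef2c, a factor of megakaryocyte maturation and lymphoid priming, was at 0.144 and 0.2 FPKM in control and 2.5 and 1.56 FPKM in SUV-OE (limma adjusted p = 0.0688, limma-voom adjusted p = 0.00561). Treml1, an α-granule membrane receptor, was at 0.0412 and 0.142 FPKM against 0.813 and 0.856 FPKM, from 1, 3, 18 and 19 reads. Tubb1, the platelet β-tubulin gene, was at 0.11 and 0.59 FPKM against 1.04 and 1.32 FPKM (limma-voom adjusted p = 0.119). F2r, which encodes the thrombin receptor PAR1, was at 0.28 and 0.305 FPKM against 1.26 and 1.58 FPKM (limma-voom adjusted p = 0.019), whereas F2rl3, the PAR4 gene used by mouse platelets, was at 4.2 and 3.72 FPKM in control and 2.35 and 2.38 FPKM in SUV-OE (log2 fold change -0.56, limma adjusted p = 0.126).

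Gp6 has Ncr1, an NK cell receptor gene, 18801 bases away. Ncr1 was at 0 in both controls and at 0.366 and 0.438 FPKM in SUV-OE, a pattern that Gp6 did not have.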
